A study of Mus musculus with 12 samples.

Results

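Abcb1a encodes P-glycoprotein, an ATP-driven pump that moves drugs and many other compounds out of cells. It was followed through the terminal ileum of mice raised germ-free (GF) or under specific pathogen-free (SPF) conditions, with and without an early-life course of the macrolide tylosin, which the study calls PAT. The values were those of 2 genes, Abcb1a and its family member Abcb10, out of 556 genes measured. Abcb1a was chosen by its measured level, which differed widely between these groups, so its levels and differences are given as a description without a test, whereas Abcb10 was taken by family and was tested. RNA came from 12 male C57BL/6 mice of week 7, with 3 mice in each of 4 groups. SPF control mice carried a microbiota and received no antibiotic, and SPF PAT mice carried a microbiota and had received tylosin for 5 days from the fifth day of life, through their nursing dams. GF control and GF PAT mice were raised without microbes, and were left untreated or given the same course. The control mice received autoclaved water without tylosin. The GF mice came from another breeding colony than the SPF mice, so colony and microbial state cannot be told apart. The labels do not name litters, so p-values measure the spread between mice that may share a litter.

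P-glycoprotein sits in the apical membrane of absorptive enterocytes, the cells that face the gut lumen, and returns absorbed foreign compounds to the lumen. Macrolide antibiotics such as erythromycin are among the compounds known to interact with it. Mice have a close paralog of the gene, Abcb1b, which the panel does not list, and the probe sequences were not used here, so whether the Abcb1a probe also binds Abcb1b RNA was not tested. Abcb10 belongs to the same ABCB subfamily but lies in the inner mitochondrial membrane and is needed for heme synthesis. The assay was NanoString nCounter with the mouse immunology panel, in which reporter probes bound to each RNA are counted by their colour codes. The authors divided the counts by 1 size factor per mouse and took log2, and the levels below are these log2 normalized counts. Counts of different probes are not compared as levels, because probes differ in capture.

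The promoters of both genes are shown because they are the only regulatory sequences given for them and the genes varied together between mice, as described below. Each is the stretch of 250 bases before the start site in RefSeq on GRCm38.p6, read 5′ to 3′ along the gene, with Abcb1a at chr5:8566841-8567090 on the plus strand and Abcb10 at chr8:123983123-123983372 on the minus strand. Capitals mark matches to the motifs named after the sequences.
Abcb1a: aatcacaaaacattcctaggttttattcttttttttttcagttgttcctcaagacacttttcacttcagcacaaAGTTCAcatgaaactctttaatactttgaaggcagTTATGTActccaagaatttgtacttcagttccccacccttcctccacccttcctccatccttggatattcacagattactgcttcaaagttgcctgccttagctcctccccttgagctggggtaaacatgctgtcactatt
Abcb10: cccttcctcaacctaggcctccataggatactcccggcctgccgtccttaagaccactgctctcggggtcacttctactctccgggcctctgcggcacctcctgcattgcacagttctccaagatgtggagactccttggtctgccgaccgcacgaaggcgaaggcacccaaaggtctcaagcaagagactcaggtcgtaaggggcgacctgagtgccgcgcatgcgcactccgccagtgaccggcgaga

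The Abcb1a stretch had a GC content of 40.4% and the Abcb10 stretch one of 61.6%. Both were searched on both strands for 6 motifs, chosen after the sequences had been seen. The nuclear receptor half-site AGTTCA occurred once in the Abcb1a stretch, from base -176 to -171 relative to the start site, and occurred in 11.9% of 32817 mouse promoter stretches of this length. The D-box core TTATGTA, part of the element bound by PAR bZIP factors and by Nfil3, occurred once, from base -141 to -135, and was found in 2.34% of promoters. The TATA box TATAAA (12.4% of promoters), the CCAAT box CCAAT (33.8%), the GC box GGGCGG (32.7%) and the AP-1 site TGANTCA (6.75%) were not found in the Abcb1a stretch. The Abcb10 stretch held none of the 6. A match to these letters was not tested for binding, and these RNA data do not measure it.

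Abcb1a RNA was lowest in SPF control mice, intermediate in SPF PAT mice and highest in both GF groups. In SPF control mice 8, 7 and 2 the level was 12.3, 12.2 and 12.2 log2 normalized counts, from raw counts of 6238, 5685 and 5598. In SPF PAT mice 27, 26 and 21 it was 14.4, 13.9 and 13.7, from counts of 17389, 13065 and 14366. Every SPF PAT mouse was above every SPF control mouse, and mouse 27 stood highest of the exposed SPF mice. In GF control mice 39, 38 and 37 the level was 14.9, 15.3 and 14.9, from counts of 30303, 34337 and 30585. In GF PAT mice 43, 42 and 41 it was 15.3, 15.2 and 14.9, from counts of 37042, 36680 and 32592. The 6 GF mice were all above the 6 SPF mice, and both GF groups overlapped.

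The group means (± SD, n = 3 each) were 12.2 ± 0.0993 in SPF control, 14.0 ± 0.322 in SPF PAT, 15.0 ± 0.251 in GF control and 15.1 ± 0.198 in GF PAT mice. SPF control mice had 7.05-fold less Abcb1a than GF control mice, a difference of -2.82 on the log2 scale (standard error 0.19). It was the largest fall among the 556 genes, which is how the gene came to be chosen. In the same comparison limma called 42.1% of all genes at an adjusted p under 0.05, and 26.8% of genes had all SPF control mice below all GF control mice. The share of a mouse's panel counts taken by Abcb1a was 0.682 ± 0.0105% in SPF control and 4.85 ± 0.553% in GF control mice (SD, n = 3 each). SPF and GF tissue are bulk samples, in which fewer cells with a transcript and less transcript per cell cannot be told apart.

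After PAT, Abcb1a in SPF mice was 3.40-fold above SPF control, a log2 difference of 1.76 (standard error 0.19), second among the 556 genes in size of rise. Limma called 26.3% of all genes in this comparison, and 22.8% had all SPF PAT mice above all SPF control mice. The 146 genes behind the first share became 64 without mouse 2, 232 without mouse 21 and 55 under Tukey HSD. The rise of Abcb1a placed SPF PAT mice 62.6% of the way from the SPF control to the GF control mean on the log2 scale. They remained below the GF mice, by 2.07-fold against GF control (log2 difference -1.05, standard error 0.19) and by 2.16-fold against GF PAT (log2 difference -1.11, standard error 0.19). The non-overlapping fall against GF control was shared with 8.99% of genes and that against GF PAT with 5.22%. Abcb1a took 2.39 ± 0.407% of the panel counts in SPF PAT mice (SD, n = 3).

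Without a microbiota the same course left Abcb1a within the range of the untreated mice. GF PAT and GF control means differed by 0.06 on the log2 scale (standard error 0.19), a 1.04-fold difference, and Abcb1a took 5.49 ± 0.569% of panel counts in GF PAT mice (SD, n = 3). In this comparison limma called 0% of genes (28 had an unadjusted p under 0.05, and limma's voom on the recovered counts called 1). The PAT effect on Abcb1a in SPF mice exceeded that in GF mice by 1.70 on the log2 scale (standard error 0.27), sixth from the top among the genes. Limma called 17.1% of genes (95) for a difference between both PAT effects, a count that ran from 35 without mouse 27 to 217 without mouse 21. These comparisons share mice, so that the SPF control mice enter both the first and the second.

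**Figure D1:**
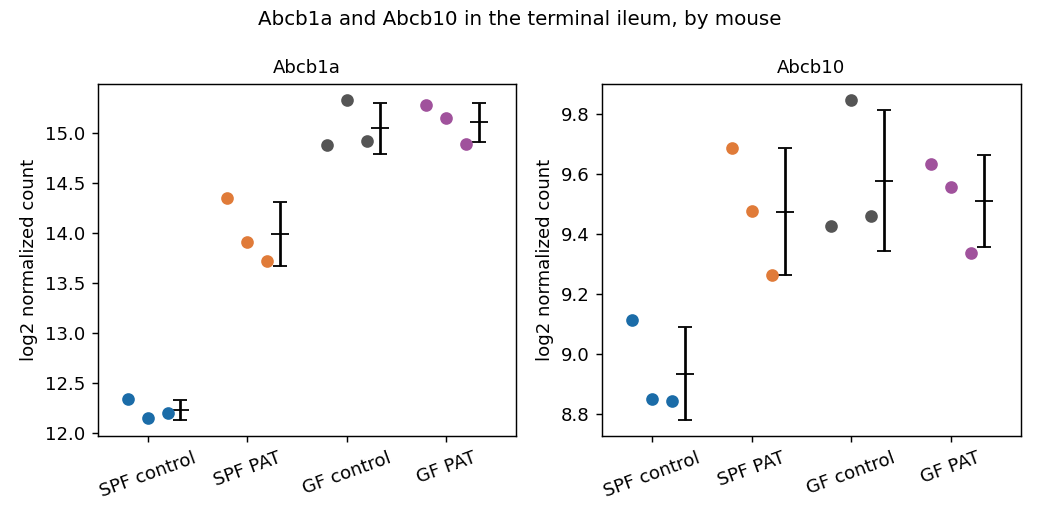
Log2 normalized counts of Abcb1a (left) and Abcb10 (right) in each of 12 mice, by group on the horizontal axis. Points are mice in the order in which the text lists them and bars are the mean ± SD of 3 mice. Abcb1a separates SPF control (12.2 to 12.3), SPF PAT (13.7 to 14.4) and GF mice (14.9 to 15.3), whereas Abcb10 overlaps between SPF PAT and both GF groups.

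Abcb10, the mitochondrial family member, was also lowest in SPF control mice, and its levels in SPF PAT mice overlapped those of both GF groups. Its levels were 9.11, 8.85 and 8.84 (log2 normalized counts) for mice 8, 7 and 2 of the SPF control group, and 9.69, 9.48 and 9.26 in SPF PAT mice 27, 26 and 21. They were 9.43, 9.85 and 9.46 in GF control mice 39, 38 and 37, and 9.63, 9.56 and 9.34 in GF PAT mice 43, 42 and 41. SPF control mice were the lowest 3 of the 12, and the other groups overlapped with each other. Of all genes, 26.8% had all SPF control mice below all GF control mice. All SPF PAT mice were above all SPF control mice in 22.8%. The raw counts of 547 to 765 give a counting error of 0.0522 to 0.0617 log2 units, below the SD between mice of 0.154 to 0.234.

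Abcb10 was lower in SPF control than in GF control mice by 1.56-fold (log2 difference -0.64, 95% confidence interval -1.01 to -0.27, limma adjusted p = 0.0112). Of the 556 genes, 22.7% were called lower. It was higher in SPF PAT than in SPF control mice by 1.45-fold (log2 difference 0.54, interval 0.17 to 0.91, limma adjusted p = 0.0389), where 14.0% of genes were called higher. The second call was not retained without SPF PAT mouse 27 (0.43, limma adjusted p = 0.139) or 26 (0.0950), SPF control mouse 7 (0.117) or 2 (0.125), or GF PAT mouse 43 (0.0511) or 42 (0.0583). Under the methods' Tukey HSD neither call passed, with adjusted p = 0.0544 for the fall in SPF control mice and 0.159 for the rise after PAT.

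Between GF PAT and GF control mice Abcb10 differed by -0.07 (interval -0.44 to 0.30, limma adjusted p = 0.888). SPF PAT mice differed from GF control mice by -0.10 (interval -0.47 to 0.27, limma adjusted p = 0.898), where 2.16% of genes were called, and from GF PAT mice by -0.03 (interval -0.40 to 0.33, limma adjusted p = 0.983), where 1.44% were called. These shares stand for 12 and 8 genes, and both counts fell to 1 without mouse 26 and to 0 with the compared groups alone, and the 12 also became 0 under median centring. The difference between the PAT effects on Abcb10 in SPF and GF mice was 0.61 (interval 0.09 to 1.13, limma adjusted p = 0.0877) and did not pass the threshold. It did so when counts were scaled to the total of each mouse (0.52, limma adjusted p = 0.0320) or without SPF PAT mouse 21 (0.72, limma adjusted p = 0.0423).

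Within a mouse the difference between both genes is the same whichever single factor scales that mouse, although not under quantile normalization. Log2 Abcb1a minus log2 Abcb10 was 3.23, 3.30 and 3.36 in SPF control mice 8, 7 and 2, and 4.66, 4.44 and 4.46 in SPF PAT mice 27, 26 and 21. It was 5.46, 5.49 and 5.46 in GF control mice 39, 38 and 37, and 5.65, 5.60 and 5.55 in GF PAT mice 43, 42 and 41. The 4 groups did not overlap on this measure, but the GF groups lay close, at 5.49 in mouse 38 and 5.55 in mouse 41. The counting error of Abcb10 in these mice was 0.0522 and 0.0548 log2 units. How many other pairs of genes separate the groups was not computed. The mean of SPF control minus that of GF control mice was -2.17, that of SPF PAT minus SPF control mice was 1.22, and that of GF PAT minus GF control mice was 0.13. Under quantile normalization these were -1.87, 1.06 and 0.33. As a measure that contains Abcb1a it is described without a test.

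The rule by which Abcb1a was chosen used group levels, and it did not use the differences among mice within a group. Deviations of Abcb1a and Abcb10 from their group means ran together, with Pearson's r = 0.956 and Spearman's rho = 0.958 over 12 mice in the deposited scaling. The pair was picked after a look at the values, so these are descriptions without a p. Without mice 27 and 38, which lay farthest from the median, r was 0.941. In 3 of the 4 groups both genes ranked the mice in the same order. In SPF control mice the order of mice 7 and 2 differed between the genes.

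The SD within groups, pooled over the 4 groups, was 0.232 log2 units for Abcb1a, 0.192 for Abcb10 and 0.0743 for their difference within a mouse. Among the 444 other genes with a mean normalized count of at least 20, the median r with the deviations of Abcb1a was 0.225, 8 genes exceeded 0.9, and Abcb10 was first. Next were Cd82 (0.948), a tetraspanin gene, Cd55 (0.940), a complement regulator, Chuk (0.930), a kinase subunit of the NF-kB pathway, and Tollip (0.924), an adaptor of Toll-like receptor signalling. The lowest r was -0.948, so that other genes ran against Abcb1a as closely. Under quantile normalization r between Abcb1a and Abcb10 was 0.493 and Abcb10 was 58th among the genes. Under the other scalings r was 0.919 to 0.985.

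**Figure D2:**
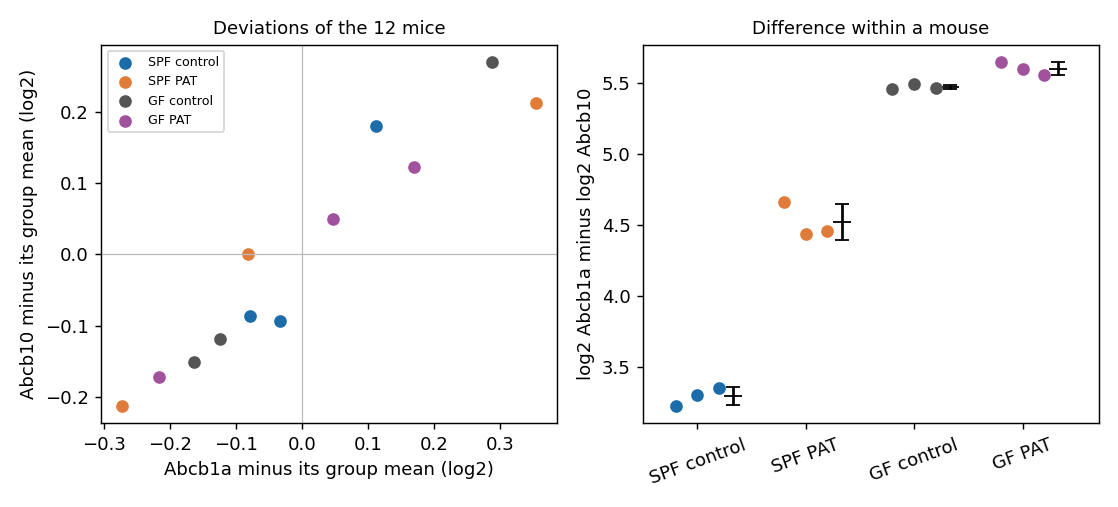
Left, deviation of each mouse from its group mean in log2 units, for Abcb1a on the horizontal and Abcb10 on the vertical axis, with 12 mice coloured by group and r = 0.956. Right, log2 Abcb1a minus log2 Abcb10 in each mouse by group, with the mean ± SD of 3 mice. The difference rises from 3.23 to 3.36 in SPF control mice to 5.46 to 5.65 in GF mice. No groups overlap, but GF control (up to 5.49) and GF PAT (from 5.55) lie close.

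Of a list of 16 genes for ABC transporters and related ATP-binding cassette proteins, 4 were measured. Besides Abcb1a and Abcb10 these were Tap1, which carries peptides into the endoplasmic reticulum for MHC class I, and Abcf1, an ABC protein without membrane domains that acts in translation. All 3 genes other than Abcb1a passed limma's threshold in SPF control against GF control mice, 1 higher and 2 lower, beside 42.1% of all genes. All 3 did so in SPF PAT against SPF control mice, 2 higher and 1 lower, beside 26.3% of all genes, and this count was 2 wherever Abcb10 lost its call, as given above and under median centring, quantile normalization, Tukey HSD or the compared groups alone. None of them passed between GF PAT and GF control mice.

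Tap1 moved opposite to Abcb1a. It was 10.8, 10.7 and 10.5 in SPF control mice 8, 7 and 2, and between 8.58 and 9.49 in the other 9 mice, which overlapped. SPF control mice exceeded GF control mice by 1.87 on the log2 scale (standard error 0.20, limma adjusted p = 0.000166), where 19.4% of genes were called higher and 25.4% were higher without overlap. SPF PAT mice were lower than SPF control mice by 1.47 (log2 difference -1.47, standard error 0.20, limma adjusted p = 0.00176), where 12.2% of genes were called lower and 18.2% were lower without overlap. The PAT effect on Tap1 in SPF minus that in GF mice was -1.82 (standard error 0.28, limma adjusted p = 0.00924), where 7.19% of genes were called lower.

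Abcf1 followed the direction of Abcb1a. Its level was 8.73, 8.74 and 8.80 in SPF control mice 8, 7 and 2, and 9.59, 9.38 and 9.27 in SPF PAT mice 27, 26 and 21. In GF mice it was 9.50 to 9.82, and the lowest SPF PAT mouse was above the highest SPF control mouse, as in 22.8% of all genes. The difference was -0.99 between SPF control and GF control mice (standard error 0.12, limma adjusted p = 0.000295), where 22.7% of genes were called lower, and 0.66 between SPF PAT and SPF control mice (standard error 0.12, limma adjusted p = 0.00503), where 14.0% were called higher. The PAT effects in SPF and GF mice differed by 0.78 (standard error 0.17, limma adjusted p = 0.0167), where 9.89% of genes were called higher. The SPF PAT mice lay below the GF control mice without overlap, as did 8.99% of genes, by -0.33 (interval -0.60 to -0.07), which did not pass the threshold (limma adjusted p = 0.282).

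**Figure D3:**
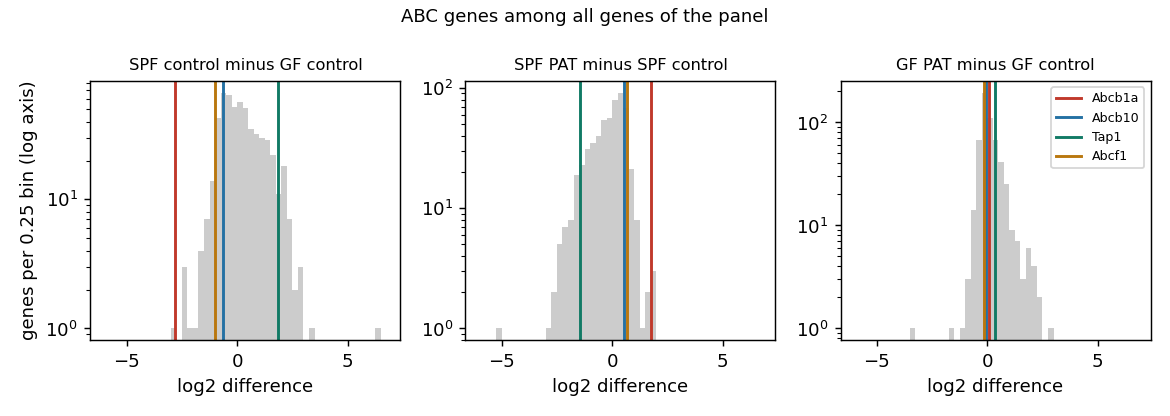
Histograms of the log2 differences of all 556 genes in bins of 0.25 (log vertical axis), for 3 comparisons. Coloured lines mark the 4 measured ABC genes. Abcb1a lies at the lower edge for SPF control minus GF control (-2.82) and near the upper edge for SPF PAT minus SPF control (1.76), Tap1 lies on the other side of 0 in both (1.87 and -1.47), and the lines lie between -0.12 and 0.35 for GF PAT minus GF control.

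Several transcription factors have been reported to act on the gene for P-glycoprotein, among them nuclear receptors that sense foreign compounds and bile acids. Of 18 listed, 8 were measured, and the xenobiotic receptors Nr1i2 and Nr1i3, the vitamin D receptor Vdr and the glucocorticoid receptor Nr3c1 were not among them. SPF control mice had 5 of the 8 at a lower level than GF control mice, 0 at a higher one and 3 that did not pass, beside 22.7% of all genes called lower. The median difference of the 8 was -0.50, beside 0.08 over all genes. Ctnnb1, which encodes beta-catenin, was lower by 0.80 (difference -0.80, limma adjusted p = 0.00544), Trp53, encoding p53, by 0.72 (difference -0.72, limma adjusted p = 0.00281) and Nfkb1, an NF-kB subunit, by 0.61 (difference -0.61, limma adjusted p = 0.00170). Rela, another NF-kB subunit, had a difference of -0.52 (limma adjusted p = 0.0129) and Ahr, the aryl hydrocarbon receptor, one of -0.48 (limma adjusted p = 0.0174). The values of the others were -0.35 for Hif1a, -0.16 for Nfkb2 and 0.77 for Ets1. Without GF control mouse 38 the count of 5 was 3, and Ahr alone also did not pass without SPF control mouse 7 (-0.41) or GF control mouse 39 (-0.46), under Tukey HSD (adjusted p = 0.0551) or with the compared groups alone (limma adjusted p = 0.0532).

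After PAT, SPF mice had 4 of the 8 factors above SPF control, 0 below it and 4 that did not pass, beside 14.0% of genes called higher. They were Ctnnb1 (0.54, limma adjusted p = 0.0444), Rela (0.52, limma adjusted p = 0.0217), Trp53 (0.41, limma adjusted p = 0.0482) and Nfkb1 (0.41, limma adjusted p = 0.0190). These counts were not firm, since 0 passed without mouse 27, 7 or 2 or with the 2 compared groups alone. With GF control mouse 39, SPF PAT mouse 26, or any of GF PAT mice 43, 42 and 41 left out, 2 passed. Differences of the remaining factors were 0.40 for Nfkb2, 0.37 for Ahr, 0.00 for Hif1a and -0.53 for Ets1. None of the 8 passed between the GF groups. Nfkb1 had a difference of 0.55 between the PAT effects in SPF and GF mice (standard error 0.15, limma adjusted p = 0.0322), and the other 7 did not pass, so that 1 of 8 was called higher beside 9.89% of all genes.

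Cytokines reported to act on intestinal P-glycoprotein had low counts in this tissue. All 6 of the list were on the panel, and Il6, Ifng, Il10 and Il2 had mean normalized counts of 5.99, 7.34, 9.57 and 0.747. Il1b, an inflammatory cytokine, was higher in SPF control than in GF control mice by 0.86 (interval 0.29 to 1.43, limma adjusted p = 0.0212), with levels of 5.46 to 5.60 against 4.48 to 4.79. It was the 1 of 6 called higher, a share near the 19.4% of all genes. That call was not retained without SPF control mouse 2 (0.83) or GF control mouse 37 (0.76), nor under median centring, quantile normalization or Tukey HSD. Tnf, another inflammatory cytokine, differed by 0.62 in that comparison (interval -0.70 to 1.94, limma adjusted p = 0.407). Between SPF PAT and SPF control mice none of the 6 passed, beside 26.3% of all genes called, with -0.66 for Il1b (limma adjusted p = 0.0779) and -1.07 for Tnf (limma adjusted p = 0.197), and between the GF groups none passed.

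The genes most like Abcb1a were ranked by Pearson's r over the 12 mice, as a measure of likeness only, since the mice fall into groups. Of the 444 other genes, 42 had r above 0.9 and 23 had r below -0.9, so Abcb1a shared its profile with many genes. The 8 closest were Il15 (0.986), a cytokine that maintains intraepithelial lymphocytes, Map4k4 (0.983), a kinase, Abcf1 (0.978), Mme (0.976) and Dpp4 (0.976), peptidases of the cell surface, Rae1 (0.968), Maf (0.966), a transcription factor, and Jak2 (0.958), a cytokine receptor kinase. Abcb10 was 57th, with r = 0.884. With the profiles compared by root mean square distance, which also weighs the size of the differences, 2 of these 8 genes remained, and without the SPF control mice 4 remained. Spearman's rho and median centring were run as well, and over the 4 alternatives 2 to 6 of the 8 remained.

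The 8 genes had smaller differences than Abcb1a. For the fall this follows from the choice of Abcb1a, whose fall was the largest of all genes, and its rise ranked second. Between SPF control and GF control mice they ranged from -0.79 for Rae1 to -2.31 for Mme, and between SPF PAT and SPF control mice from 0.44 for Rae1 to 1.14 for Mme. Il15 had levels of 7.19, 6.95 and 6.93 in SPF control mice 8, 7 and 2, of 7.93 to 8.26 in SPF PAT mice and of 8.40 to 8.66 in GF mice, with no overlap between these 3 ranges. Of all genes, 22.8% had all SPF PAT mice above all SPF control mice. All SPF PAT mice were below all GF control mice in 8.99% of genes and below all GF PAT mice in 5.22%. SPF PAT mice lay between 49.5% (Mme) and 75.7% (Il15) of the way from the SPF control to the GF control mean. That range holds the 62.6% of Abcb1a. The genes were picked for profiles like that of Abcb1a, so a similar position follows from the choice. The genes most opposite were Ccl5 (r = -0.979), a T cell chemokine, Gzmb (-0.968) and Gzma (-0.953), granzymes of cytotoxic lymphocytes, and Psmb9 (-0.954), an immunoproteasome subunit.

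Abcb10 had other nearest genes. They were Src (0.979), a tyrosine kinase, Tollip (0.975), Il10rb (0.970), a receptor chain for interleukin 10, Ctnnb1 (0.969) and Prkcd (0.966), a protein kinase C. SPF PAT mice lay 83.9% of the way from SPF control to GF control in Abcb10, and 68.0% (Ctnnb1) to 85.9% (Il10rb) in these 5 genes. They were likewise picked for their likeness to Abcb10.

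**Figure D4:**
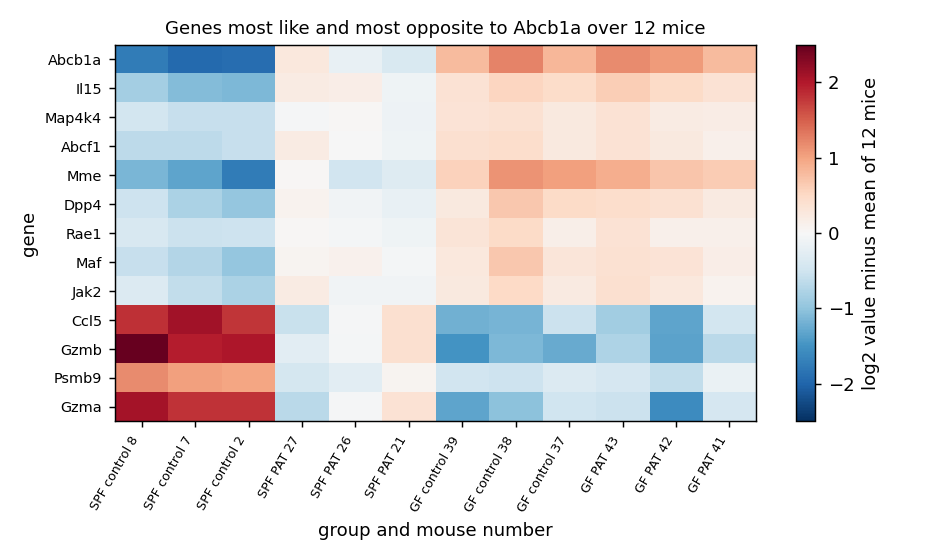
Log2 values minus the mean of the 12 mice (colour scale in log2 units, limits -2.5 to 2.5) for Abcb1a, the 8 genes most like it and the 4 most opposite to it by Pearson's r (rows), in each mouse (columns, named by group and mouse number). Abcb1a and its 8 neighbours are lowest in SPF control mice, and Ccl5, Gzmb, Psmb9 and Gzma are highest there.

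Markers of the cell types in the samples moved with Abcb1a to different degrees, and their part in its differences was not tested. Enterocytes carry the peptidases Mme and Dpp4 on the same apical membrane as P-glycoprotein. The summed normalized count of these 2 of 4 listed genes was 7680 to 10599 in SPF control, 14004 to 16996 in SPF PAT, 19866 to 27148 in GF control and 19827 to 22987 in GF PAT mice. As for Abcb1a, this sum was lowest in SPF control and intermediate in SPF PAT mice. Between the GF groups, which overlapped, its median was higher in the control mice (23981 against 21603). Mme and Dpp4 are among the genes named above as closest to Abcb1a by Pearson's r (0.976 each). The lists were chosen with earlier results of these data known. That the sum follows Abcb1a is therefore no separate test of enterocyte content. The 4 measured of 11 epithelial markers, Pigr, Itln1, Muc1 and Cldn1, did not have their lowest sums in SPF control mice. Their sum, which is mostly Itln1 of goblet and Paneth cells and the immunoglobulin receptor gene Pigr, was 110121 to 131495 in SPF control and 94631 to 166142 in SPF PAT mice. It was 87981 to 102315 in GF control and 76414 to 86173 in GF PAT mice. Markers restricted to absorptive ileal enterocytes such as Fabp6 were not among the 556 genes.

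Lymphocyte markers were highest in SPF control mice, with large differences between mice of one group. The 8 of 9 T cell markers summed to 1075 to 1959 in SPF control, 338 to 1202 in SPF PAT, 301 to 800 in GF control and 486 to 1028 in GF PAT mice. The 8 of 8 B cell markers summed to 1204 to 6908, 812 to 5960, 847 to 3671 and 2027 to 5910 in the same order. None of these markers was at 0 in any mouse. By limma, 7 of the 8 T cell markers were higher in SPF control than in GF control mice, beside 19.4% of all genes, and 6 were lower in SPF PAT than in SPF control mice, beside 12.2% of all genes. Of these 6, Zap70 had a limma adjusted p of 0.0156, and the others ran from 0.0318 (Cd5) to 0.0479 (Cd247), near the threshold. The dependence of these marker counts on single mice or on the processing was not examined. Of the 8 B cell markers 1 passed in each of these directions, a share near those of all genes. The values that follow were picked after they were seen. SPF control mouse 8 had a B cell sum of 1204, a T cell sum of 1075 and an Abcb1a level of 12.3. In SPF PAT mouse 21 these were 5960, 1202 and 13.7. Within every group except the GF control mice, the mouse with the highest B cell sum had the lowest Abcb1a. The part of cell content in the differences of Abcb1a was not tested.

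The sums of the other lists are led by their abundant genes. The 7 of 8 macrophage and dendritic cell markers summed to 1304 to 2262, the 4 of 8 endothelial markers to 1538 to 2094 and the 3 of 4 plasma cell markers to 4854 to 8760 over the 12 mice, and none was at 0 in any mouse. Against GF control mice, SPF control mice had 1 of the 7 macrophage and dendritic cell markers higher and 1 lower, 1 of the 4 endothelial markers lower and 1 of the 3 plasma cell markers higher, beside 19.4% of all genes called higher and 22.7% called lower. After PAT, 1 of the 7, 0 of the 4 and 2 of the 3 were lower than in SPF control mice, beside 12.2% of all genes. With so few markers these counts are given as values only. Irf4, a transcription factor of plasma cells and activated T cells, was higher in SPF control than in GF control mice (2.44, limma adjusted p = 0.000160) and lower in SPF PAT than in SPF control mice (-1.22, limma adjusted p = 0.00854). Prdm1, a transcription factor of plasma cells, was lower in SPF PAT than in SPF control mice (-0.72, limma adjusted p = 0.0316). Itgam, an integrin of myeloid cells, was higher in SPF control than in GF control mice (1.26, limma adjusted p = 0.00629) and lower after PAT (-0.90, limma adjusted p = 0.0440). The macrophage receptor Cd163 (-1.02, limma adjusted p = 0.0229) and the endothelial cadherin Cdh5 (-0.77, limma adjusted p = 0.00589) were lower in SPF control than in GF control mice.

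**Figure D5:**
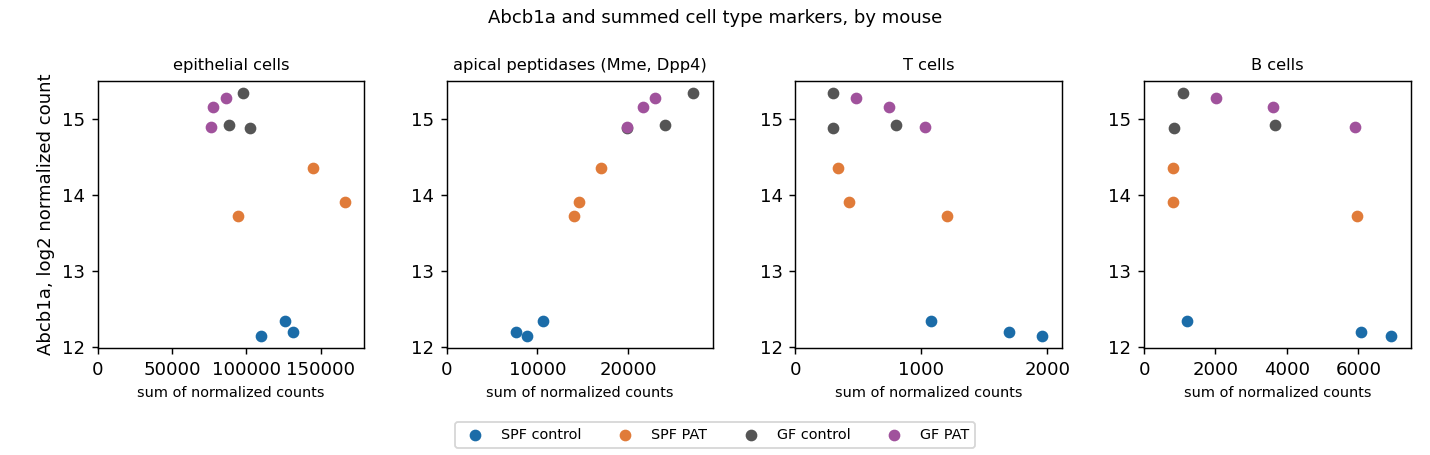
Abcb1a (vertical axis, log2 normalized count) against the summed normalized counts of 4 marker lists, with 1 point per mouse coloured by group. The Mme and Dpp4 sum rises with Abcb1a from SPF control (7680 to 10599) over SPF PAT (14004 to 16996) to GF mice (19827 to 27148). Mme and Dpp4 are among the genes closest to Abcb1a by Pearson's r, so this rise is no separate test. The B cell sum spreads from 812 to 5960 within SPF PAT mice.

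The depth of the 12 libraries was 600308 to 923395 counts, and the 3 SPF control mice had the highest totals. The counting error of Abcb1a was at most 0.0193 log2 units in a mouse, against a pooled SD between mice of 0.232. Scaling each mouse to its median gene moved the median of all genes by -0.44 for SPF control minus GF control and by 0.36 for SPF PAT minus SPF control. Abcb1a then differed by -3.26 and 2.12, and its direction was the same under each of the 6 other alternatives run, with -2.82 to -2.61 and 1.64 to 1.80.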

How the data were processed

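Terminal ileum RNA of 12 mice was counted on the nCounter mouse immunology panel of NanoString. The deposited table holds log2 values, which the authors made by dividing counts by size factors, with DESeq2 named in the submitters' processing notes, and taking the log2. Values were given for 556 genes, whereas 14 reference genes and 14 control probes held none. Whole counts were recovered from the log2 values (all non-zero values whole within 0.01), with size factors of 0.830 to 1.25 and totals of 600308 to 923395 counts a mouse. Counting errors were taken as Poisson and cover counting only. A genome build was not needed for the assay, and promoter sequences came from RefSeq on GRCm38.p6.

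Groups were taken from the labels. Log2 values of all genes and mice were fitted with limma 3.58.1 in R 4.3.3 (lmFit, contrasts, eBayes) and p-values were adjusted by Benjamini-Hochberg over the 556 genes of each comparison, with a threshold of 0.05 and 95% intervals that are not adjusted. The methods' Tukey HSD was an alternative, because limma pools the spread over genes and mice. On simulated data with 200 of 556 genes changed between SPF PAT and SPF control mice, limma recovered 74% of the genes given a log2 change of 1 and 91% of the genes given a change of 2, and Tukey HSD recovered 45% and 77%. Likeness was computed with Python 3.11.15 with scipy 1.17.1, over genes with a mean normalized count of at least 20.

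The genes, lists and tests were chosen with earlier results of these data known. Named genes were Abcb1a, Abcb10, the measured genes of the ABC, transcription factor and cytokine lists, the 8 genes most like and the 4 most opposite to Abcb1a, the 5 with the most similar deviations from group means, and the 5 most like Abcb10. Cell type markers named beside these come from the marker lists, and those named singly were chosen after their values were seen. Alternatives were other scalings (median, quantile, total count, total count without the 10 most abundant genes), an added count of 1 and voom. The 10 genes left out of the total included Abcb1a. Further alternatives were other eBayes settings, a filter on low counts, the compared groups alone, Tukey HSD, and each mouse left out.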

Additional observations from a re-analysis of the deposited data

Results flagged for a closer look

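Among the measured genes of all lists, the PAT effect in SPF mice minus that in GF mice passed limma's test of the difference itself for 9 of 53 genes (17.0%), a share near the 17.1% of all 556 genes. It was -1.82 for Tap1, 0.78 for Abcf1 and 0.55 for Nfkb1 on the log2 scale. Among the cell type markers it was 1.31 for Mme, 0.82 for Dpp4, -2.16 for Cd3d, -2.23 for Cd247, -1.73 for Zap70 and -2.15 for Irf4. Groups of 3 mice are too small for the test of single outlying samples, and none was run.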

How the results depend on the processing

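Centring each mouse on its median gene gave Abcb1a differences of -3.26 (SPF control minus GF control) and 2.12 (SPF PAT minus SPF control), and 2.25 for the difference of PAT effects, which was 1.42 under quantile normalization. With 1 mouse left out these 3 values ran from -2.90 to -2.67, from 1.59 to 1.90 and from 1.53 to 1.84. The fall of Abcb10 in SPF control against GF control mice kept its direction in all alternatives run and missed the threshold under Tukey HSD (-0.64, adjusted p = 0.0544). Its rise in SPF PAT mice missed it under median centring (0.90), quantile normalization (0.58), Tukey HSD and the compared groups alone (0.54 in both), and ran from 0.43 to 0.65 with 1 mouse left out (limma adjusted p = 0.0228 to 0.139). The difference of its PAT effects passed under total count scaling (0.52) and ran from 0.47 to 0.72 with 1 mouse left out. Its other differences lay near 0 and changed sign without passing. GF PAT minus GF control was 0.050 under total count scaling, 0.042 without the abundant genes and -0.14 to 0.066 with 1 mouse left out. SPF PAT minus GF control was 0.0044 without the abundant genes and -0.21 to 0.031 with 1 mouse left out. SPF PAT minus GF PAT was 0.069 under median centring and -0.14 to 0.072 with 1 mouse left out. The cause of these changes was not tested.

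The transcription factor count in SPF PAT against SPF control mice was 0 with the compared groups alone, 1 under Tukey HSD, 6 under quantile normalization, total count scaling or the low-count filter and 0 to 4 with 1 mouse left out. That in SPF control against GF control mice was 7 under median centring, 4 under Tukey HSD or with the compared groups alone and 3 to 6 with 1 mouse left out. The cytokine count in the latter comparison was 0 under median centring, quantile normalization and Tukey HSD and 0 to 1 with 1 mouse left out, and it was 0 to 1 in SPF PAT against SPF control mice. The correlation of deviations, whose alternatives were chosen after seeing the data, was 0.493 under quantile normalization and 0.940 to 0.975 with 1 mouse left out. Over all genes, 234 calls between SPF control and GF control mice became 142 under Tukey HSD, and 146 between SPF PAT and SPF control mice became 55, or 76 with the compared groups alone, and 64 to 232 with 1 mouse left out. Between SPF PAT and GF control mice 12 calls became 6 under quantile normalization, 2 under Tukey HSD and 1 to 11 with 1 mouse left out, and between SPF PAT and GF PAT mice 8 became 1 under Tukey HSD or median centring and 1 to 11 with 1 mouse left out. The within-mouse difference of Abcb1a and Abcb10 was -1.87, 1.06 and 0.33 under quantile normalization, an alternative chosen after seeing the data, and kept its direction. Quantile normalization moved the median gene by -0.23 and 0.16 in these comparisons. Tukey HSD was not run for the difference of PAT effects. No paired analysis was possible because the labels give each mouse a number of its own. The mean normalized count was under 20 for 111 genes, where counting error is largest.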
